A study of Mus musculus with 5 samples.

Results

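The mitochondrial respiratory chain is built from subunits of 2 genomes, and its nuclear-encoded subunits were described here in cultured mouse astrocytes. Members were all genes of the authors' deposited table whose symbol names a subunit of complex I (Nduf followed by a, b, c, s or v and a number), complex II (Sdha to Sdhd), complex III (Uqcr), complex IV (Cox4 to Cox8) or complex V (Atp5), without the symbols marked -ps for pseudogene. This gave 84 of 18783 genes: 40 of complex I, 4 of complex II, 8 of complex III, 15 of complex IV and 17 of complex V. They lie on 19 chromosomes. GENCODE M21 lists 4 of them, Cox6c2, Ndufa11b, Ndufb4c and Ndufs6b, as processed pseudogenes although their symbols carry no such mark, and they were kept. Another 6 features were left out by the -ps mark, among them Ndufb1-ps, which RefSeq lists as the coding gene Ndufb1.

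Complexes I and II pass electrons from NADH and succinate to ubiquinone, complex III passes them on to cytochrome c, and complex IV hands them to oxygen. Complexes I, III and IV pump protons out of the mitochondrial matrix, and complex V, the ATP synthase, lets them back in to drive ATP formation. Most subunits are made from nuclear genes and imported, whereas a few of the innermost ones are encoded by mitochondrial DNA. Astrocytes carry out much glycolysis and release lactate, and they also hold a working respiratory chain.

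RNA was measured by sequencing of polyadenylated transcripts from primary astrocyte cultures of C57BL/6 mice, prepared from newborn pups of P0 to P1 and collected at 12 days in vitro. Control cultures (2 libraries, labelled Naive) had no treatment, Aβ cultures (2 libraries) had 1 µM of the amyloid-β peptide of Alzheimer's disease for 5 days from day 7, and Aβ+DFMO cultures (1 library) had the same peptide together with 50 µM DFMO. DFMO, difluoromethylornithine, blocks ornithine decarboxylase, the enzyme that starts polyamine synthesis. Whether the 2 libraries of a group are separate cultures is not stated in the labels, and the spread behind the p-values may be technical. No library had DFMO without Aβ.

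Gene values were used as the authors' normalized group means, so whether single libraries overlapped between groups was not examined. The Control and Aβ libraries held 46886111 to 105544237 reads and the Aβ+DFMO library 4825677, in which 1 read was worth about 7.45 normalized units. On that scale 6 subunit genes had fewer than 10 reads in the Aβ+DFMO library. Summed signals of the marker lists were 186799 in Control, 185843 in Aβ and 146536 in Aβ+DFMO for 10 astrocyte genes, 13016, 7673 and 5176 for 8 microglial genes, 45921, 45061 and 24862 for 8 genes of the oligodendrocyte lineage, 19713, 19228 and 22648 for 5 neuronal genes, 75813, 77896 and 91178 for 6 fibroblast and mural genes, and 178, 199.8 and 119 for 2 endothelial genes. The listed neuronal marker Rbfox3 and the endothelial markers Pecam1 and Cldn5 had no value in the authors' deposited table and are not in these sums. None of the markers with a value was at 0, but some were low. Cdh5 of endothelium had 17.9 in Control and an estimated 1 read in the Aβ+DFMO library. The astrocyte markers ranged up to 57209 for Gfap in Control. Acta2 made up most of the fibroblast and mural sums, at 65705.5, 66644 and 81013. In Aβ+DFMO against Aβ, 4 of the 6 fibroblast and mural genes had a log2 ratio below 0 (median −0.13). So had 2 of the 5 neuronal genes (median 0.12). Of the listed markers, 4 microglial ones were lower in Aβ than in Control in the authors' deposited table, where 0.287% of all genes were called. In Aβ+DFMO against Aβ, 4 astrocyte, 2 microglial, 6 oligodendrocyte and 1 neuronal markers were lower, against 5.18% of all genes. Higher there were 2 fibroblast and mural markers and 1 neuronal marker, against 4% of all genes. With the GC trend described below taken out of that comparison, 4 astrocyte, 0 microglial, 5 oligodendrocyte and 0 neuronal markers were called lower, and 2 fibroblast and mural markers and 1 neuronal marker higher. Of all genes, 0.791% were then called lower and 1.12% higher. In these bulk samples a smaller number of cells of a type and less RNA per cell cannot be told apart. The part of these marker differences in the subunit results below was not tested.

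Levels of different genes were compared as the Control mean per kb of the gene's median transcript length. Raw means were set side by side for a gene and its near-identical copies and for the genes of the c subunit, to show how reads were divided between them. Sums over marker lists and over complexes were also of raw means, not scaled by length. The median over the 84 genes was 2095 per kb. The β subunit of ATP synthase, Atp5b, which holds the catalytic sites, had the highest level at 12547 per kb, and the α subunit Atp5a1 followed within complex V at 6801. Cox4i1, a subunit that regulates cytochrome c oxidase, led complex IV at 8027 per kb. Uqcrc1, a core protein of complex III, led its complex at 7552, but stood in place 4 when the longest transcript was used, where Uqcrh, the hinge protein next to cytochrome c1, led at 3700.0. Ndufa4 stood highest among the genes grouped with complex I at 7364 per kb. Its symbol places it there, although its protein is known as a component of complex IV. Sdha, the flavoprotein that oxidises succinate, led complex II at 5016.

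**Figure D1:**
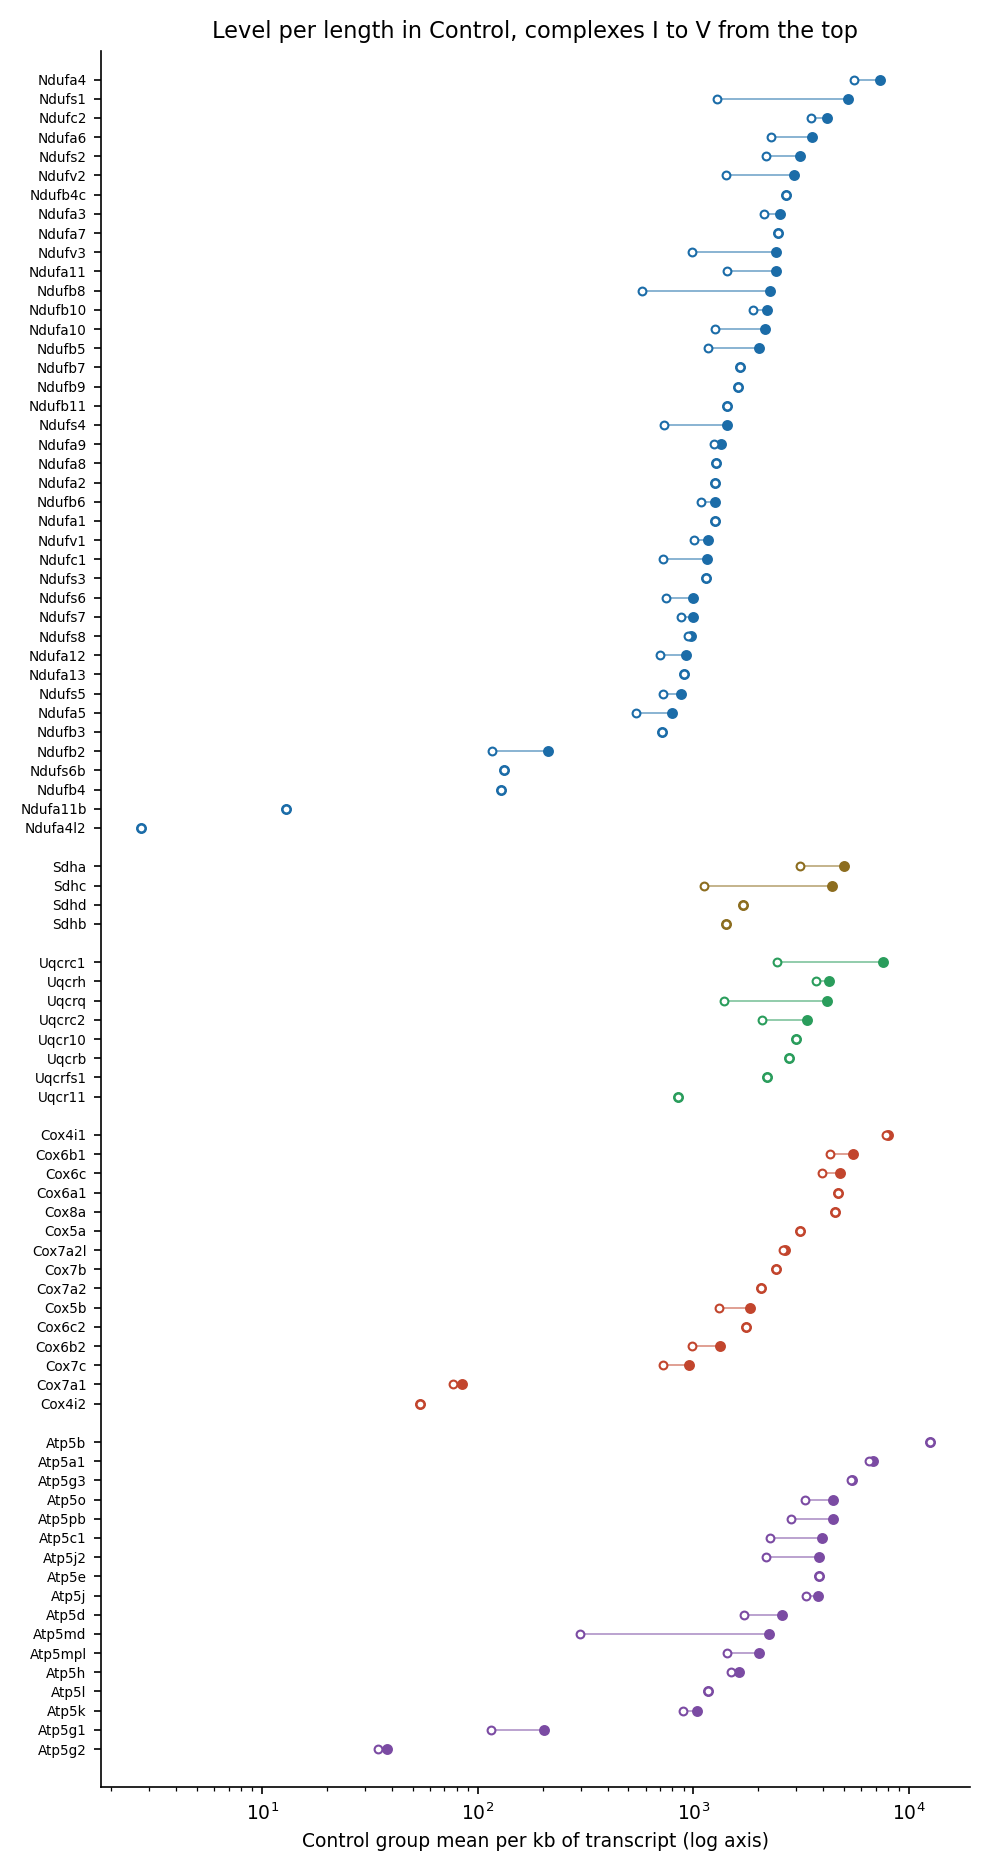
Control group mean per kb of transcript on a log axis for each of the 84 subunit genes, with complexes I to V from the top and genes ordered by level within each. Filled points use the median and open points the longest transcript length of the gene, and lines join them. Atp5b sits highest at 12547, Ndufa4l2 lowest at 2.74, and Ndufa11b, Atp5g2, Cox4i2 and Cox7a1 come next above it with 12.9 to 84.7.

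Several subunits have paralogs used in other tissues or conditions, and in these cultures those forms had less signal per length than the common ones. Cox4i2, the form of subunit 4 known from lung and from low oxygen, had 53.9 per kb in Control against 8027 for Cox4i1. Its mean was 39.4 in Control, 38.6 in Aβ and 37.3 in Aβ+DFMO, the last from an estimated 5 reads. Cox7a1, the form of heart and skeletal muscle, had 84.7 per kb against 2053 for the common form Cox7a2 and 2661 for its relative Cox7a2l. Ndufa4l2, which low oxygen is known to induce, had 2.74 per kb and rested on an estimated 1 read in the Aβ+DFMO library. Cox6b2, known as the testis form, had 1324 per kb against 5481 for Cox6b1. None of these minor forms passed the test in either comparison.

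Promoter sequences were available for 66 of the 84 genes, from the RefSeq annotation of GRCm38.p6, as 250 bases before to 50 after the transcript start. They were searched on both strands for letters known from promoters of respiratory chain genes. The NRF1 site (GCGC, then AT, then GCGC) stood in 5 of the 66 (7.58%), against 1.07% of all 27025 promoters and 2.38% of the 8859 promoters of genes with a mean signal of at least 200. The shorter NRF1 core (GCGC, any 2 bases, GCGC) stood in 27.3% of the members, in 1891 of all promoters and in 16.1% of those expressed genes. For GABP, an ETS factor, CCGGAAGT stood in 7.58% of the members, 4.31% of all promoters and 9.65% of the expressed genes, and its core CCGGAAG in 25.8% of the members, 9.93% of all promoters and 1862 of the expressed genes. The YY1 site (AAGATGGC followed by GGC) stood in 6.06%, 0.755% and 1.93%, and its core AAGATGGC in 15.2%, 3.19% and 5.43%. Members thus had more of the NRF1 and YY1 letters than expressed genes had, while for GABP their share lay below it for the full letters and above it for the core. The 250 bases before the start are shown 5′ to 3′ on the gene's strand for the 2 genes with the largest significant falls and the 1 with the largest significant rise in Aβ+DFMO, with the cores of any of the 3 factors, on either strand, in capitals.
Cox6a1, GRCm38.p6 chr5:115348959-115349208, minus strand: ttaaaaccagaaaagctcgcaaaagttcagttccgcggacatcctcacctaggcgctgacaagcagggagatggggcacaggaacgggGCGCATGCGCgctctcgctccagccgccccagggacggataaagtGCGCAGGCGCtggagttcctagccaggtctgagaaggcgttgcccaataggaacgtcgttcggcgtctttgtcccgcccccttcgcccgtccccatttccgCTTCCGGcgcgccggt
Uqcr11, GRCm38.p6 chr10:80406822-80407071, minus strand: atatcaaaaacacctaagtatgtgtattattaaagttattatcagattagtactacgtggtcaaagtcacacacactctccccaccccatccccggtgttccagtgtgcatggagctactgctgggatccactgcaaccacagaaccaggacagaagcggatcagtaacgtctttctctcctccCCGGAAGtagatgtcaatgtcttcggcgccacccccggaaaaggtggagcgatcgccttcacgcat
Atp5md, GRCm38.p6 chr19:47090648-47090897, minus strand: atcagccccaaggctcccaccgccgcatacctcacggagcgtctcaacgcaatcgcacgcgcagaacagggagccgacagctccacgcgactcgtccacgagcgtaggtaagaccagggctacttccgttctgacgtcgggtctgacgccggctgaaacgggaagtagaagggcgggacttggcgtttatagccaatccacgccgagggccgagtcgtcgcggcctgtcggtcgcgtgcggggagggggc
Cox6a1 held NRF1 cores at −162 and −117 from the start and a GABP core, written on the other strand as CTTCCGG, at −16. Uqcr11 held a GABP core at −66. Atp5md held none of the cores before its start, but a GABP core at 2 after it, past the letters shown. A match is a description of letters and says nothing about binding in these cells.

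The first comparison asked what Aβ changed. At an adjusted p under 0.05, no subunit gene passed in Aβ against Control in the authors' deposited table, made with DESeq2 (0 of 84; 0.287% of all genes were called, 54 of 18783), and 0 of 84 had an unadjusted p under 0.05, against 324 of all genes (1.72%). Atp5l, subunit g of the membrane part of ATP synthase, had the smallest p in the authors' deposited table, at 634 in Control and 738 in Aβ (log2 ratio 0.22, unadjusted p = 0.103). Most subunit genes were slightly higher in Aβ. Of the 84, 69 had a log2 ratio above 0 (82.1%), against 51.1% of all genes, and the median was 0.05, against 0.0024 for all genes. Subunit transcripts are short, and among the 1008 genes with a mean of 200 or more and a transcript under 700 nt 61.3% lay above 0, with a median of 0.02, against 80.9% and 0.06 for the 47 members under 700 nt. The median implied standard error of a single member's ratio was 0.116, and a shift shared by the members was not tested.

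By complex, log2 ratios above 0 were found for 32 of 40 genes of complex I, 4 of 4 of complex II, 6 of 8 of complex III, 11 of 15 of complex IV and 16 of 17 of complex V. Their medians were 0.05, 0.04, 0.03, 0.06 and 0.06. Ndufs6, an accessory subunit of the electron-carrying arm of complex I, went from 567 to 631 in the authors' deposited table (0.15). Uqcrh had 2024 and 2178 (0.11, unadjusted p = 0.295) and Cox8a, a small membrane subunit of complex IV, 2493 and 2665 (0.10, unadjusted p = 0.322) in the authors' deposited table. Sdhc, a membrane anchor of complex II, had 3567 and 3703 (0.05) there. At the other end lay Cox6b2, at 576 and 529 (−0.12), and Cox7c, a small membrane subunit of complex IV, at 513 and 476 (−0.11) in the authors' deposited table. With its 2 near-identical copies added, the ratio of Cox7c turned to 0.06. Only Ndufa11b, Ndufs6b and Atp5g2, all with Control means under 50, and Atp5l and Atp5k exceeded 0.2 in either direction.

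The second comparison asked what DFMO changed in cultures with Aβ, and it rests on the single Aβ+DFMO library. Subunit genes went both ways: 9 of 84 (10.7%) passed in Aβ+DFMO against Aβ in the authors' deposited table, where 9.18% of all genes were called. Higher were 2 members (2.38%, against 4% of all genes) and lower were 7 (8.33%, against 5.18%). The median log2 ratio was −0.09, against 0.01 for all genes, and 32 of 84 lay above 0. The share of called members lay close to that of all genes. Of the 77 members with a mean of 200 or more 9 were called, against 14.4% of all genes with such a mean (1691 of 11737). By direction these were 2 higher and 7 lower members, against 736 higher and 955 lower of the 11737 genes. The highest of the 3 group means was that of Aβ+DFMO in 31 genes, and the lowest in 48.

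**Figure D2:**
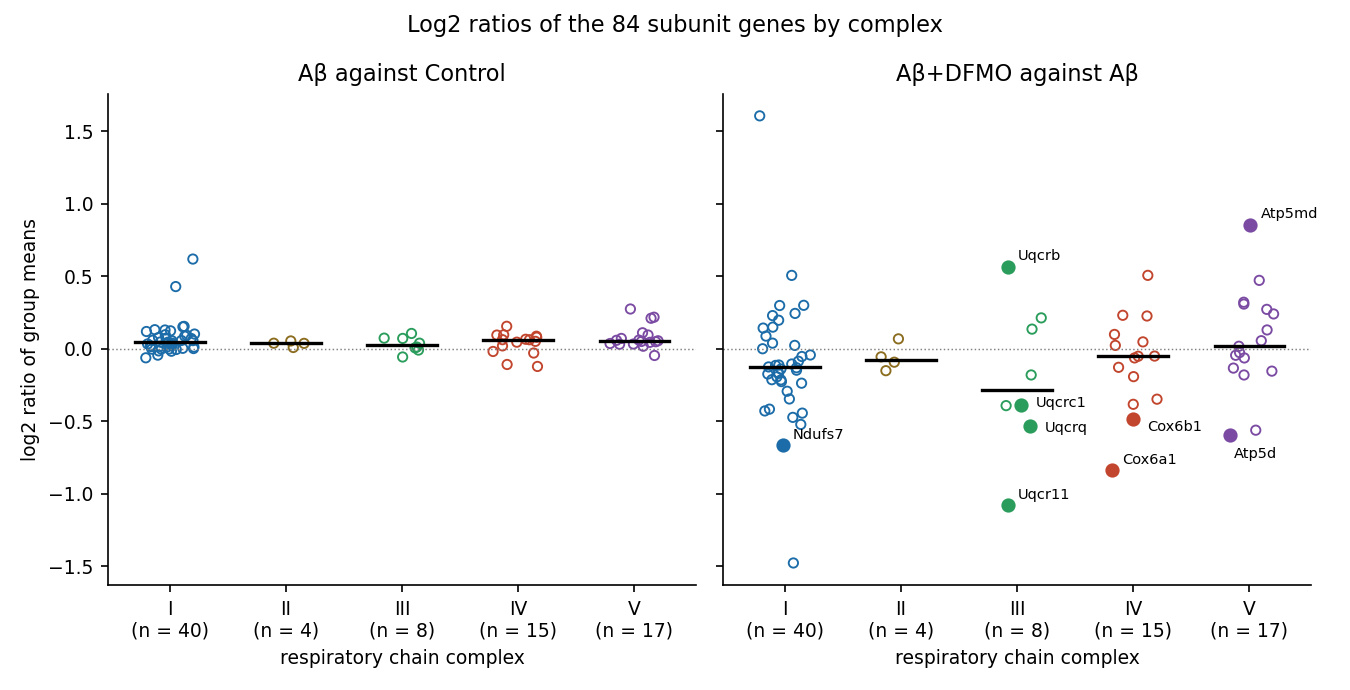
Log2 ratio of group means of each subunit gene (points) by respiratory chain complex, for Aβ against Control (left) and Aβ+DFMO against Aβ (right). Black bars are medians per complex, filled points passed in the authors' deposited table, and n is the number of genes. The left panel holds no filled point and lies close to 0, whereas in the right panel 2 filled points are above 0 and 7 below.

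The differences in Aβ+DFMO followed the GC content of the transcript, as they did over all genes. Across the 77 subunit genes with a mean of 200 or more, which share the 3 group means and are no independent replicates, Spearman's rho of GC content and log2 ratio was −0.52 and Pearson's r −0.59, and across 11704 genes of all kinds they were −0.70 and −0.66. For Aβ against Control the subunit genes gave −0.08 and −0.07. The 8 subunit genes with under 45% GC had a median log2 ratio of 0.19 in Aβ+DFMO against Aβ and held both rises. The 57 with 50% or more had a median of −0.13 and held all 7 falls, and the 19 between them had a median of 0.04 and no call. Over all genes with a mean of 200 or more, a minimum not set for these member classes, the medians of the 3 classes were 0.29, −0.24 and 0.12 in the same order. Under 45% GC 505 of those 2401 genes were called higher and 13 lower. At 50% or more 65 of 6070 were called higher and 910 lower. Between them 165 of 3233 were called higher and 30 lower. Subunit transcripts had a median GC content of 52.5%, against 50.1% for all genes, and a median length of 637 nt, against 1972 nt.

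With the GC trend of all genes taken out, the picture changed. The number of called subunit genes went from 9 to 2, both higher, where 1.91% of all genes were called, 1.12% higher and 0.791% lower. None of the 7 falls passed. The median turned from −0.09 to 0.06, and 25 of the 84 log2 ratios changed sign. Atp5md was the 1 gene called both ways, and Atp5j was called only after the trend was taken out. Values without the trend are therefore given below for the called genes and for the main subunits of each complex. What lies behind the GC trend was not tested.

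**Figure D3:**
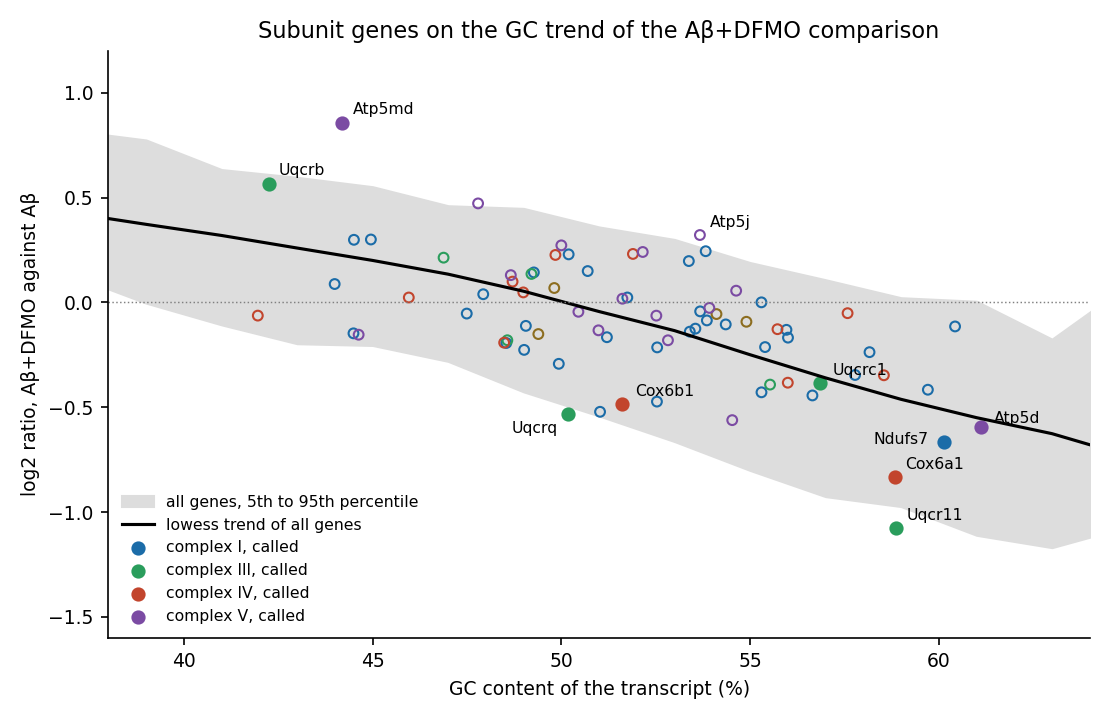
Log2 ratio of Aβ+DFMO against Aβ plotted against the GC content of the transcript in percent for the 77 subunit genes with a mean of at least 200. The black line is the lowess trend of all genes and the grey band their 5th to 95th percentile. Filled points passed in the authors' deposited table, open points did not and take the colours of the complexes, and the unfilled complex II points are brown. Atp5d, Ndufs7 and Uqcrc1 sit near the line, Uqcrq and Uqcr11 just below the band, and Atp5md and Atp5j above it.

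In complex I, 1 of 40 genes fell and none rose, where 5.18% of all genes were called lower and 4% higher. Ndufs7 (chr10:80249121-80256794, plus strand, GRCm38), which holds the last iron-sulfur cluster before ubiquinone, had 866 in Control, 909 in Aβ and 574 in Aβ+DFMO. It was lowest in Aβ+DFMO, with a log2 ratio of −0.66 against Aβ in the authors' deposited table (implied standard error 0.23, adjusted p = 0.0437). Without the GC trend the ratio was −0.14 (adjusted p = 0.966), and the GC content was 60.1%. The other core subunits of the electron-carrying arm went in both directions and did not pass. Ndufs1, the largest iron-sulfur subunit, had 3406, 3547 and 4157 (0.23 against Aβ), and Ndufs3, a core subunit of the arm that leads to ubiquinone, had 1192, 1219.7 and 1444 (0.24) in the authors' deposited table. Lower values without a call were those of Ndufv1, which binds NADH and flavin, at 1672, 1652 and 1215 (−0.44, adjusted p = 0.0893 in the authors' deposited table), and of the iron-sulfur subunit Ndufs8, at 951, 1033 and 812 (−0.35). Ndufv2, the partner of Ndufv1, had 2393, 2469 and 2228 (−0.15). The core subunits named here, which sit together in 1 arm, thus had ratios between −0.66 and 0.24. Without the GC trend none of them passed, and they lay between −0.37 for Ndufv2 and 0.42 for Ndufs3, with Ndufs1 at 0.24 and Ndufv1 at −0.10. Ndufs8 changed direction, to 0.06.

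Of the 33 genes of complex I outside that core, none was called. Ndufb11, an accessory membrane subunit, had 1300.4, 1314 and 946 (−0.47, adjusted p = 0.0956 in the authors' deposited table), and −0.36 without the GC trend. Ndufa4 had 3387, 3478 and 4278 (0.30, adjusted p = 0.149 in the authors' deposited table), a value that became 0.08 without the GC trend. The extreme ratios of the complex, 1.61 for Ndufa4l2 and −1.48 for Ndufs6b, rested on an estimated 1 and 3 reads in the Aβ+DFMO library.

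Ndufb4, an accessory subunit of the membrane arm, shows how reads can be divided between copies. GENCODE M21 holds the processed pseudogene Ndufb4c (chr15:73809507-73809896, minus strand, GRCm38), whose 390 bases equal the whole coding sequence of Ndufb4 (chr16:37647170-37654453, minus strand). The first 75 coding bases, the length of 1 read, are shown with the start codon in capitals, and a read from them fits both places.
Ndufb4 and Ndufb4c: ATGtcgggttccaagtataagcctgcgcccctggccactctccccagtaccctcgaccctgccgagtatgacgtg
The table gave Ndufb4 means of 124, 121 and 171 and Ndufb4c means of 1046, 1049 and 730.3, so most of the joint signal was assigned to the pseudogene. Their log2 ratios in Aβ+DFMO against Aβ had opposite signs, 0.51 and −0.52 in the authors' deposited table, and neither passed. They were 0.60 and −0.48 without the GC trend. The sum of both gave −0.37. Which of them was transcribed cannot be told apart from these values.

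Complex II had no called gene, and its 4 subunits had the narrowest range of any complex, from −0.15 to 0.07. Sdha had 9084 in Control, 9139.8 in Aβ and 9584 in Aβ+DFMO. Sdhb, the iron-sulfur subunit, had 1618, 1661 and 1558. The membrane anchors Sdhc and Sdhd had 3567, 3703 and 3562 and 2087, 2143 and 1930.2. When the GC trend was taken out, the 4 ratios in Aβ+DFMO against Aβ lay between −0.18 for Sdhd and 0.15 for Sdhb.

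Complex III had 1 rise and 3 falls among 8 genes, where 9.18% of all genes were called, and a median of −0.28. All 8 had a mean of 200 or more, and of all genes with such a mean 14.4% were called. None of the 8 genes of complex III passed once the GC trend was taken out. Uqcrb (chr13:66900617-66905378, minus strand, GRCm38), a small subunit near the ubiquinone site, rose from 1563 in Aβ to 2314 in Aβ+DFMO, with 1487 in Control. The log2 ratio in the authors' deposited table was 0.57 (implied standard error 0.147, adjusted p = 0.00361), at a GC content of 42.2%. Uqcr11 (chr10:80402997-80406830, minus strand), a very small subunit, fell from 362 to 171 with 376 in Control, from an estimated 23 reads. Its log2 ratio was −1.08 in the authors' deposited table (implied standard error 0.372, adjusted p = 0.0429). Uqcrq (chr11:53427922-53430831, minus strand), which contacts the mitochondrially encoded cytochrome b, fell from 2124 to 1468 with 2107 in Control (−0.53, implied standard error 0.17, adjusted p = 0.0256 in the authors' deposited table). Uqcrc1 (chr9:108936633-108949623, plus strand), fell from 4043 to 3093 with 4025 in Control (−0.39, implied standard error 0.129, adjusted p = 0.0344 in the authors' deposited table). In all 4 genes Control and Aβ lay close together and Aβ+DFMO apart.

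The other core protein went the other way without a call. Uqcrc2, the partner of Uqcrc1, had 3961, 4168 and 4832 (0.21 in the authors' deposited table), and Uqcrfs1, the Rieske iron-sulfur protein, had 2992, 2973 and 2623 (−0.18). Without the GC trend Uqcrc1 was at −0.03, Uqcrc2 at 0.08, Uqcrfs1 at −0.25, Uqcr11 at −0.61 (adjusted p = 0.694) and Uqcrb at 0.28 (adjusted p = 0.555). Uqcrq moved least, to −0.53 with an adjusted p of 0.088, since its GC content of 50.2% lies where the trend is near 0. The median of the complex became −0.07.

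In complex IV, 2 of 15 genes fell and none rose, against 5.18% and 4% of all genes. Cox6a1 (chr5:115345642-115348981, minus strand, GRCm38), the common form of subunit 6a, had 2667 in Control, 2832 in Aβ and 1587 in Aβ+DFMO. Its log2 ratio of −0.84 in the authors' deposited table had the smallest p of all members (implied standard error 0.152, adjusted p = 6.26e-06). Cox6b1 (chr7:30616861-30626151, minus strand), which faces the intermembrane space where cytochrome c docks, had 2664, 2815 and 2012 (−0.48, implied standard error 0.142, adjusted p = 0.0122 in the authors' deposited table). Both were lower in Aβ+DFMO than in either other group. Without the GC trend they stayed lower but did not pass, at −0.37 (adjusted p = 0.285) and −0.42 (adjusted p = 0.124).

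The remaining genes of complex IV did not pass. Cox4i1 had 5980.3, 6063 and 5850.1, and Cox5a, Cox5b and Cox6c, subunits that surround the catalytic core, had 2022, 2112 and 2182, then 1139.7, 1217 and 933, and 2906, 2999 and 3211. Cox8a had 2493, 2665 and 2094 (−0.35, adjusted p = 0.119 in the authors' deposited table), and its ratio was 0.10 without the GC trend. Cox7a2 had 1353, 1416 and 1662 (0.23) and Cox7a2l 2934, 3063 and 3583 (0.23) in the authors' deposited table. The genes named here other than Cox8a lay, without the GC trend, between −0.08 for Cox5b and 0.34 for Cox4i1, with Cox7a2 at 0.31 and Cox7a2l at 0.22. Subunits of the same complex thus lay on both sides of 0.

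Complex V held 1 rise and 1 fall among 17 genes, a share near the 9.18% of all genes called. Atp5md (chr19:47083464-47090647, minus strand, GRCm38), also called Usmg5 or DAPIT, a small membrane subunit that takes part in joining ATP synthases into dimers, had 812 in Control, 876 in Aβ and 1587 in Aβ+DFMO. It rose with a log2 ratio of 0.86 against Aβ in the authors' deposited table (implied standard error 0.179, adjusted p = 0.000139), and it was the only gene that passed again without the GC trend (0.63, adjusted p = 0.0278). Atp5d (chr10:80138632-80145818, plus strand), the δ subunit of the rotating stalk, had 2409, 2508 and 1662 (−0.59, implied standard error 0.157, adjusted p = 0.00445 in the authors' deposited table). At a GC content of 61.1% its ratio became −0.03 without the trend. Atp5j (chr16:84827866-84835625, minus strand), coupling factor 6 of the outer stalk, had 2681, 2714 and 3391 (0.32, adjusted p = 0.116 in the authors' deposited table), and it passed only without the trend (0.49, adjusted p = 0.0168). It thus lay higher in Aβ+DFMO both ways, and its call depended on the trend.

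**Figure D4:**
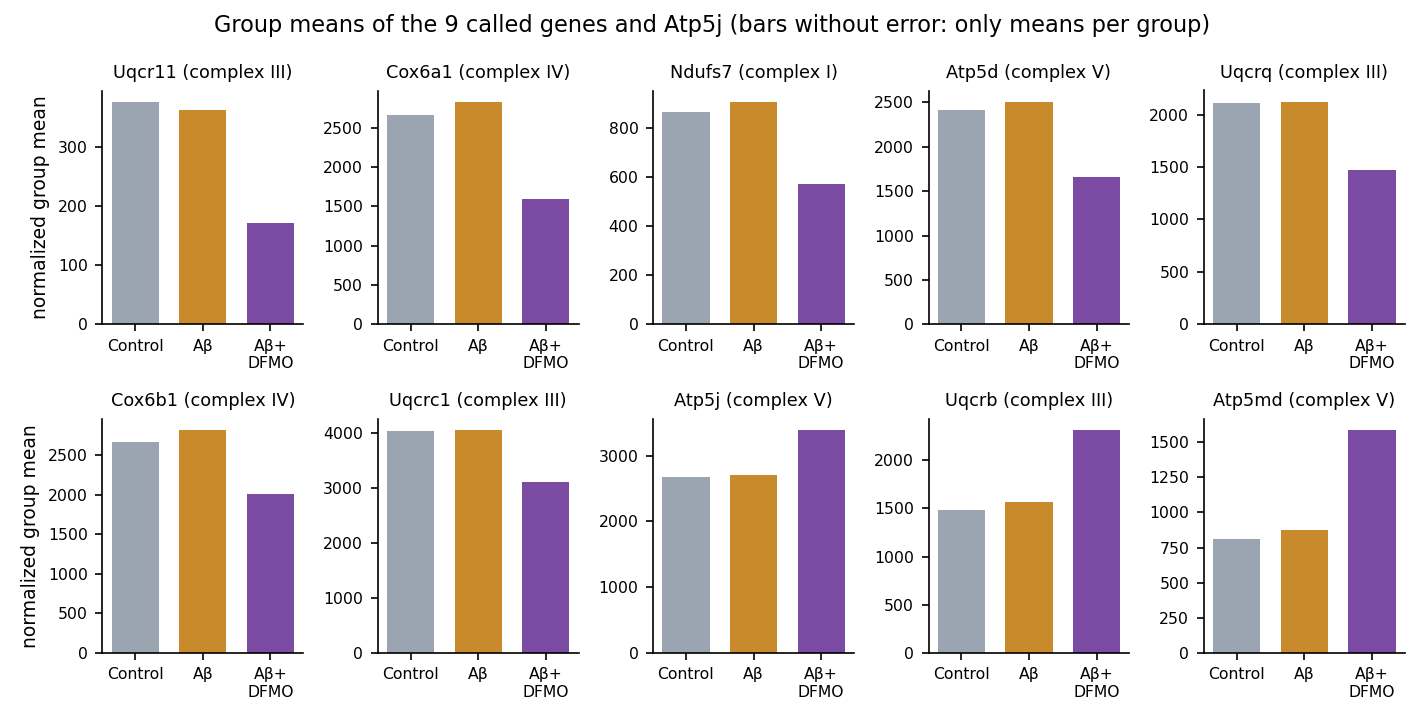
Normalized group means in Control, Aβ and Aβ+DFMO for the 9 called genes and Atp5j, each with its own axis from 0. Bars have no error because only group means were used. Control and Aβ bars differ little in every panel, and the Aβ+DFMO bar is the lowest in 7 panels and the highest in 3.

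In the catalytic head of ATP synthase no other gene than Atp5d passed. Atp5a1 had 17495, 18120.5 and 17342, Atp5b 24041, 24792 and 25092, the γ subunit Atp5c1 of the central stalk 3939.8, 4093 and 4479, and the ε subunit Atp5e 1605, 1642 and 1707. Their log2 ratios against Aβ lay between −0.06 and 0.13, and without the GC trend between 0.05 for Atp5a1 and 0.28 for Atp5e. Atp5o, which joins the head to the outer stalk and is known as OSCP, had 2758, 2946 and 2599. Atpif1, the inhibitor of ATP synthase, whose symbol lies outside the naming rule, had 2621, 2730.3 and 2675.

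The c subunit, whose ring turns as protons pass, comes from 3 genes that encode the same mature protein. Atp5g3 had 3909, 4075 and 3949.7, Atp5g1 545, 528 and 481, and Atp5g2 25.9, 31.3 and 38.8, and none passed. For Atp5g2 most of the signal that could belong to it was assigned elsewhere: Gm10175, which GENCODE M21 calls a processed transcript, shares 645 bases with it at 100% identity. Gm10175 had 2088, 2024 and 962, and it fell by 1.07 on the log2 scale in the authors' deposited table (adjusted p = 3.65e-07), also without the GC trend (−0.77, adjusted p = 0.00187). The sum of Atp5g2 and Gm10175 gave a log2 ratio of −1.04, against 0.31 for Atp5g2 alone. How the signal is divided among the 3 genes is therefore uncertain.

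Near-identical copies, taken as at least 100 bases at 98% identity or more in GENCODE M21, existed for 20 of the 84 genes, and for 15 of them a copy was a feature of the table. In Control, the copies of 7 members held more signal than the member itself: Atp5g2, Ndufb4, Atp5l, Atp5h, Ndufa12, Atp5g1 and Cox7c. These counts hold only features matched to GENCODE. Ndufs5-ps, at 578 in Control against 492 for Ndufs5, had no such match, so whether it is a copy was not examined. Atp5l had 634, 738 and 1023, and its copy Gm10221, identical over 309 bases, had 1535, 1713 and 1319. Alone its log2 ratio in Aβ+DFMO against Aβ was 0.47 in the authors' deposited table (adjusted p = 0.125), 0.37 without the GC trend, and −0.07 with its copy. In Aβ against Control, the sums turned Cox7c from −0.11 to 0.06 and Atp5g2 from 0.27 to −0.04. For the called genes the sums kept the direction: Atp5md with Gm14539 gave 0.73, Uqcrb with Gm2962 0.44 and Uqcr11 with Gm16418 −1.08. The other 6 called genes had no such copy. Atp5o shares 287 bases with the overlapping gene Donson, and without a stated strand rule in counting their reads cannot be told apart.

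**Figure D5:**
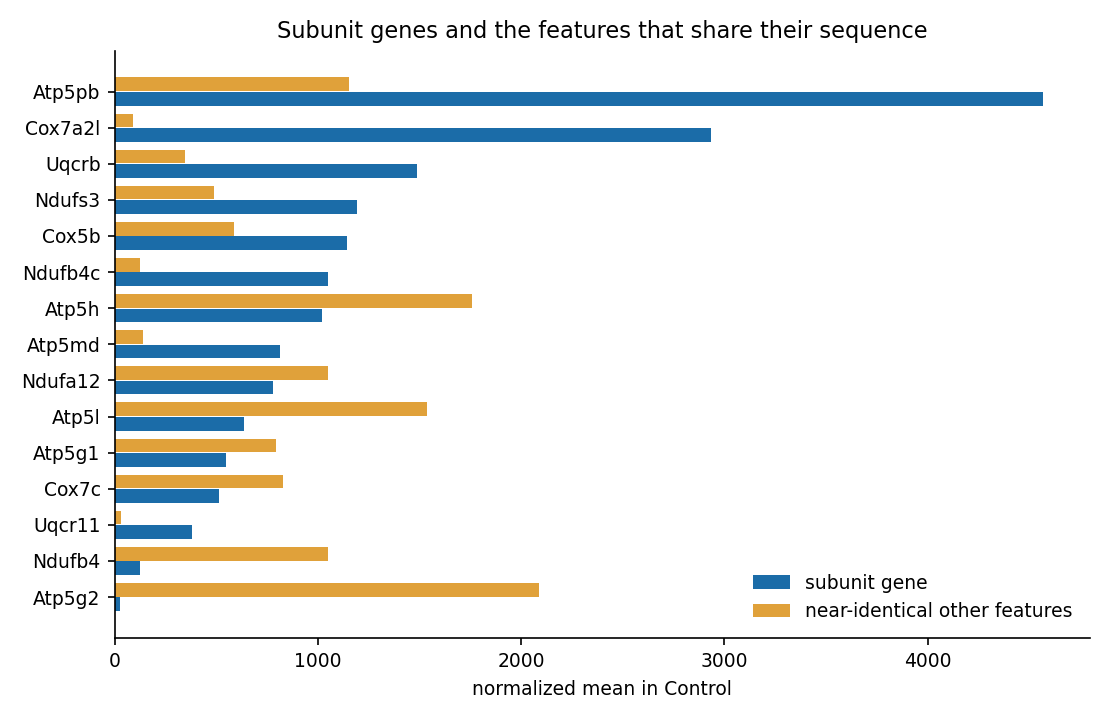
Normalized mean in Control of the 15 subunit genes that have a near-identical feature in the table (blue) and the summed mean of those other features (orange). The orange bar is longer than the blue one for 7 genes, most of all for Atp5g2 with 25.9 against 2088.

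Summed by complex, the signal was nearly level over the groups. The 84 genes together held 181508 in Control, 187380.0 in Aβ and 182317 in Aβ+DFMO, or 0.596%, 0.634% and 0.601% of all signal in the table. Complex I summed to 49019.9, 50554 and 48316, and complex II to 16357, 16647 and 16634. Complex III summed to 18268, 18742 and 17906, complex IV to 28143, 29215 and 26962, and complex V to 69720.2, 72222 and 72498. The widest relative step was that of complex IV from Aβ to Aβ+DFMO. Against Control, for which no test of Aβ+DFMO was used, the median log2 ratio of the members was −0.04, with 35 of 84 above 0, and 0.11 without the GC trend.

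Other genes of the pathway were counted from lists outside the naming rule, and none of their members passed in Aβ against Control or had an unadjusted p under 0.05 there. Closest in that comparison of the authors' deposited table was mt-Nd4l, a mitochondrially encoded membrane subunit of complex I, at 3345 in Control and 3815 in Aβ (0.19). The smallest p of each other list belonged to Ndufab1 (0.11), Ecsit (0.16), Sdhaf4 (0.07), Ttc19 (0.12), Cmc2 (0.19), Oxa1l (−0.07) and the regulator Lrpprc (0.15) in the authors' deposited table. Of 6 further subunits and carriers, 1 rose and 1 fell in Aβ+DFMO against Aβ, where 4% and 5.18% of all genes did. Cycs, cytochrome c itself, rose from 1748 to 2629.7 with 1717 in Control (0.59, adjusted p = 0.00273 in the authors' deposited table, GC content 40.8%). Cyc1, the cytochrome c1 of complex III, fell from 1429 to 917 with 1402 in Control (−0.64, adjusted p = 0.0136 in the authors' deposited table, GC content 62.3%). The carrier and the subunit that reduces it thus went opposite ways, and without the GC trend they lay at 0.26 and −0.03 and did not pass.

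Of 53 measured assembly factors, 15 for complex I, 4 for complex II, 6 for complex III, 23 for complex IV and 5 for complex V, 1 rose and 1 fell in Aβ+DFMO against Aβ, both of complex IV, and the median was 0.02. Of all genes 4% were called higher and 5.18% lower. Cox20, which escorts the newly made subunit 2, rose from 378 to 626 with 363 in Control (0.73, adjusted p = 0.0445 in the authors' deposited table). Higd2a, which takes part in building complex IV and its joined forms, fell from 1789.6 to 1177 with 1663 in Control (−0.60, adjusted p = 0.00856 in the authors' deposited table). Neither passed without the GC trend, at 0.51 and −0.45. The smallest p of the other assembly lists in that comparison of the authors' deposited table belonged to Ndufaf4 (complex I, 902 and 1304, 0.53), Sdhaf2 (complex II, 1817 and 2139, 0.24), Bcs1l (complex III, 381 and 559, 0.55) and Oxa1l (complex V, 1342 and 989.9, −0.44), and none passed.

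The 13 mitochondrially encoded subunits, whose median GC content was 37.1%, had a positive median, unlike the nuclear genes of complexes I to IV. In Aβ+DFMO against Aβ 8 of 13 rose and none fell, with a median of 0.35, against 4% of all genes called higher. Among the 2401 genes with under 45% GC and a mean of 200 or more, 505 were called higher and the median was 0.29. Their summed signal was 582502 in Control, 599282 in Aβ and 790051 in Aβ+DFMO. The smallest p belonged to mt-Co2, subunit 2 of complex IV, which rose from 32619 to 50019.9 (0.62, adjusted p = 3.43e-08 in the authors' deposited table). Without the GC trend none rose, the median was −0.10, and mt-Nd3 of complex I was called lower (−0.71). In the authors' deposited table its log2 ratio was −0.18 and did not pass. Its GC content of 33.0% lies at the edge of the trend, where even around 37% GC only 89 genes were found. The test without the trend counted no error of the trend itself. The difference between nuclear and mitochondrial subunits was itself not tested.

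Among 12 measured regulators of respiratory chain genes, 1 rose and none fell in Aβ+DFMO against Aβ, a share near the 9.18% of all genes called. Gabpa, the DNA-binding subunit of GABP, rose from 3893 to 5015 with 4013 in Control (0.37, adjusted p = 0.0263 in the authors' deposited table, GC content 42.5%), and it lay at 0.09 without the GC trend. Nrf1 had 681, 649 and 656, Ppargc1a, a coactivator that raises mitochondrial gene expression, 2029.8, 2009 and 2318, Tfam, which packs and transcribes mitochondrial DNA, 1103, 1062 and 1349, and Yy1 3895, 3752 and 4136. None of these 4 passed in either comparison.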

How the data were processed

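RNA-seq group means of 3 groups were analysed: 2 Control, 2 Aβ and 1 Aβ+DFMO libraries. The submitters' processing notes name STAR 2.7.3a, Partek, DESeq2 and FastQC and the mouse builds mm10 and GRCm39, with no role for each. Of the counting step, program and annotation were not given in the sources used here. Per the file headers, the authors deposited for 18783 genes a normalized signal (least-squares mean of each group), a p-value and a step-up adjusted p-value from DESeq2, and a ratio with its log2 for Aβ against Control and Aβ+DFMO against Aβ. A second deposited file lists reads per library, under the file's own group names, with the percent within exons (84.4% to 85.2%), per the file headers. The log2 ratios were checked against the means, and the step-up values against a Benjamini-Hochberg adjustment.

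The planned edgeR test needs counts per library, which group means do not give, and the authors' p-values were used in its place. A gene was called, and written as having risen or fallen, at an adjusted p under 0.05. The implied standard error is the log2 ratio divided by the normal deviate of its p, which treats the lone Aβ+DFMO library as varying like the others. Estimated reads in that library are the mean divided by 7.45, the most frequent step among the 7239 genes below 200. Of these values 80.1% were whole multiples within 0.05 of a read, too few to recover counts.

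The GC trend was a lowess fit (span 0.3, 3 iterations) of log2 ratio on the GC content of GENCODE M21 transcripts (GRCm38) over genes with a mean of 200 or more. Residuals were tested with the implied standard error and adjusted over the 18594 genes with a GC value. The fit was tested on simulated data whose noise was drawn with the implied standard errors. That cannot show whether those errors hold for the lone Aβ+DFMO library. Copies were found with blastn 2.17.0. Gene coordinates come from GENCODE M21, and promoter letters from RefSeq. Python 3.11.15, pandas 2.3.3, numpy 2.4.6, scipy 1.17.1, statsmodels 0.14.6 and matplotlib 3.10.9 were used.

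Named were every called member, per complex up to 4 members with the smallest p and the extreme ratios, fixed core subunits and paralogs, and from each related list up to 4 called genes and the 1 with the smallest p. Members and lists were chosen with earlier results of these data known. Listed genes outside the table (Cox6a2, Cox7b2, Cox8b, Cox8c, Coa1, Pet117, Coa8, Ppargc1b, Rbfox3, Pecam1, Cldn5) are not analysed here, and 1 fixed core subunit is not reported here. Alternatives were the GC trend, a minimum mean, centring, other thresholds, a pseudocount of 10, transcript length and motif length. Summing near-identical copies and leaving out 4 pseudogene models were added after seeing the data.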

Additional observations from a re-analysis of the deposited data

How the results depend on the processing

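In Aβ against Control, 0 members were called under every alternative run. The smallest unadjusted p of a member there, from the authors' deposited DESeq2 test, was 0.103, and an adjusted p cannot lie below it. Other thresholds, the minimum mean and leaving out the pseudogene models therefore could not add a call in that comparison. In Aβ+DFMO against Aβ the 9 calls became 2 with the GC trend taken out and 4 at an adjusted p under 0.01, and the 7 falls became 0 with the GC trend taken out; p-values adjusted again over genes with a minimum mean of 200, and centring, gave the same 9 genes, and an adjusted p under 0.10 gave 12 that held all 9. Every gene with an adjusted p under 0.05 also lies under 0.10, so the looser threshold could not lose a call. The 4 pseudogene models were not among the calls, so leaving them out could not lower the count. The 4 at the stricter threshold were Atp5d, Atp5md, Cox6a1 and Uqcrb. The median level per kb was 2095 with the median and 1423 with the longest transcript. Shorter motif cores raised the share of members with a match from 7.58% to 27.3% for NRF1, from 7.58% to 25.8% for GABP and from 6.06% to 15.2% for YY1, since fewer letters are required. Centring shifted the 3 comparisons by under 0.02. No paired analysis was possible because the values used here are group means; for the same reason leaving out a library, a replicate block and refits with edgeR or DESeq2 were not run. Depth limits the 6 members with fewer than 10 estimated reads in the Aβ+DFMO library, where a ratio was not resolved.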
